A study of Mus musculus with 12 samples.

Results

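The genes described here encode the proteasome, and were taken by name from a count table of 24421 mouse gene symbols. The rule took symbols made of Psma, Psmb, Psmc, Psmd, Psme, Psmf or Psmg and a digit, without the immunoproteasome genes Psmb8, Psmb9 and Psmb10 and without pseudogenes. It matched 47 symbols, of which 45 had 10 or more counts in at least 3 of the 12 libraries and are the genes counted below. The 2 others were Psma8, a testis form of an alpha subunit, with 0 counts in all 12 libraries, and Psmb11, a thymus catalytic subunit, with at most 4 counts. All 45 genes were among the 13281 genes tested, and the lowest count of any of them in any library was 120. By role they were 7 alpha ring and 7 beta ring subunits of the 20S core, 6 ATPases and 3 other subunits of the base, 8 lid subunits, 3 chaperones of base assembly, 4 chaperones of core assembly, and 6 genes of activators and an inhibitor. The last of the 45, Psmc3ip, only shares the prefix: it encodes a cofactor of meiotic recombination, and leaving it out changed none of the counts of called genes.

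The cells were KP cells, a line of mouse lung adenocarcinoma, and all 4 groups share the genotype label KrasLSL-G12D/+; Trp53flox/flox. The groups had 3 libraries each: sgBACH1 cells (BACH1 knockout by CRISPR/Cas9) with FEM1B siRNA (siFEM1B), sgBACH1 cells with control siRNA (siCTRL), sgCTRL cells with siFEM1B, and sgCTRL cells with siCTRL. Transfection lasted 48 hours in every group. BACH1 represses transcription and is released from DNA by heme, while FEM1B selects the substrates of a CUL2 ubiquitin ligase. The design names 1 knockout line and 1 control line and does not say whether either is a single clone, so the knockout and the line cannot be told apart.

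The 26S proteasome degrades proteins that carry ubiquitin chains. Its core is a barrel of stacked rings: the outer alpha rings gate the entrance and the inner beta rings hold the proteolytic sites. A regulatory particle sits at the ends of the barrel, with a base of ATPases that unfolds the substrate and a lid that removes the ubiquitin chain. In mammalian cells the transcription factor NRF1, encoded by Nfe2l1, raises the transcription of proteasome genes when the proteasome is inhibited, through antioxidant response elements that BACH1 and NRF2 also bind.

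Total counts ranged from 16539168 to 22196999 per library, so that 1 count was worth 0.0446 to 0.0604 CPM, the count scaled to the library's total. In bulk RNA such as this, fewer cells of a type and less RNA per cell cannot be told apart. The 45 genes together took 0.596% to 0.708% of all counts. Fem1b stood at 46.2 to 54.5 CPM in sgBACH1 cells with siFEM1B against 136 to 141 CPM with siCTRL, and at 43.0 to 58.0 CPM in sgCTRL cells with siFEM1B against 157 to 167 CPM with siCTRL (log2 fold changes -1.51 and -1.66). Bach1 mRNA did not pass the test between sgBACH1 and sgCTRL cells under either siRNA (log2 fold change -0.09 ± 0.08 SE, adjusted p = 0.34, under siCTRL). In sgBACH1 cells it stood at 39.3 to 40.5 CPM with siFEM1B against 27.6 to 31.0 CPM with siCTRL. In sgCTRL cells it stood at 37.7 to 44.1 CPM with siFEM1B against 29.6 to 33.6 CPM with siCTRL. A guide-directed edit need not lower the mRNA, so the transcript does not check the knockout. Of the markers of other cells, 1 of 7 leukocyte and 1 of 4 endothelial genes passed the filter, Cd3e and Adgre1 were at 0, and the summed levels were 20.8 to 39.2 CPM and 0.299 to 2.14 CPM. Among lung epithelial markers Krt8 and Krt18 were abundant (summed list 4756 to 5509 CPM), while Nkx2-1 was at 0 and Sftpc had at most 1 count. Epcam was at 0 to 1.57 CPM. Cdh1 had 571 to 680 CPM in sgBACH1 cells and 309 to 430 CPM in sgCTRL cells, and the part of this difference in the results was not tested. The fibroblast list summed to 8.58 to 11.2 CPM in sgBACH1 cells and 18.2 to 24.6 CPM in sgCTRL cells, and its part in the results was not tested.

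Promoter sequences are shown for the elements named above, since BACH1 and NRF1 act through them. RefSeq promoter windows on GRCm38.p6, the assembly that mm10 denotes, run from 250 bases before to 50 bases after the start, and 38 of the 45 genes had at least 1, in 41 windows of 300 bases. The core of the antioxidant response element, searched as TGACNNNGC on both strands, was found in the windows of 6 genes and in 14.6% of the 41 windows, against 14.4% of the windows of all tested genes. The 6 were Psmb5, Psmb6, Psmc6, Psmd9, Psmd12 and Psme4. The match lay upstream of the start with 10 bases on each side in 3 of them, printed 5′ to 3′ on the strand of the gene with the match in capitals (for Psmc6 it is the reverse complement):
Psmb5, chr14:54618024-54618052, minus strand: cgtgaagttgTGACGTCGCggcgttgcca
Psmc6, chr14:45329587-45329615, plus strand: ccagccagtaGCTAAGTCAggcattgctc
Psmd9, chr5:123228149-123228177, plus strand: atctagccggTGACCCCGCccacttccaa
A second motif, CCGGAAG, which holds the GGAA core of ETS factor sites, was found in 15 of the 38 genes and in 39.0% of the 41 windows, against 17.1% of the windows of all tested genes. CCAAT was found in 31.7% of the 41 windows against 38.0% of those of all tested genes. The motifs were chosen with earlier results of these data known. In the alpha ring CCGGAAG was found in 1 of 7 genes, Psma6. Its window at the annotated start of the gene, chr12:55383972-55384271, had 0 matches. The Psma6 match shown lies in another window, chr12:55398575-55398874. Windows with CCGGAAG are shown for an alpha subunit, 2 base subunits and an activator whose levels are given below (the Psmc1 and Psmd2 matches are reverse complements):
Psma6, chr12:55398683-55398709, plus strand: gagccaccacCCGGAAGcccgcggacc
Psmc1, chr12:100110164-100110190, plus strand: ggtggatgcaCTTCCGGcggtggcgat
Psmd2, chr16:20651616-20651642, plus strand: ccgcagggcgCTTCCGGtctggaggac
Psme4, chr11:30771712-30771738, plus strand: tggccccgccCCGGAAGtgacttgagg
These matches describe the letters in the window and say nothing of binding.

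The 4 groups differed in 38 of them (edgeR quasi-likelihood test of any difference among the groups, adjusted p under 0.05), where 80.8% of all tested genes were called. The 7 not called were Psma7, Psmc2, Psmc3ip, Psmc4, Psmd6, Psme2 and Psmg4. Between any pair of groups compared, the called changes ran from 0.15 to 0.53 on the log2 scale in size. The summed level of the 45 genes averaged 6236 ± 51.1 CPM in sgBACH1 cells with siFEM1B, 6067 ± 100.5 CPM in sgBACH1 cells with siCTRL, 6799 ± 288 CPM in sgCTRL cells with siFEM1B and 6518 ± 215 CPM in sgCTRL cells with siCTRL (SD, n = 3 each).

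With siFEM1B, 9 of 14 genes of the 20S core rose and 1 fell in sgBACH1 cells, and 7 rose and 1 fell in sgCTRL cells. In the lid 4 of 8 fell in sgBACH1 cells and 1 of 8 in sgCTRL cells. In sgCTRL cells 13 of the 45 genes were called higher, against 22.1% of all tested genes, and 7 lower, against 22.9%. In sgBACH1 cells 13 were called higher, against 21.9% of tested genes, and 8 lower, against 19.8%. In either direction 20 of 45 were called in sgCTRL cells and 21 of 45 in sgBACH1 cells, where 45.0% and 41.7% of tested genes were, so the share called is near that of all genes. The libraries of the paired groups did not overlap for 13 higher and 10 lower genes in sgCTRL cells (52.1% of tested genes in either direction) and for 15 higher and 11 lower in sgBACH1 cells (51.5%). The median log2 fold change of the 45 was 0.05 in sgCTRL cells and 0.08 in sgBACH1 cells, beside 0.00 and 0.02 over all tested genes. The genes called in both cell lines were the 9 risers Psma1, Psma2, Psmb2, Psmb4, Psmb6, Psmb7, Psmd4, Psme1 and Psme2b and the 3 fallers Psma5, Psmd14 and Psmd5.

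Under BACH1 knockout, 10 of the 17 subunits of the regulatory particle fell and 1 rose under siCTRL, and 11 fell and 1 rose under siFEM1B. Under siCTRL 2 of the 45 genes were called higher, against 24.2% of tested genes, and 18 lower, against 26.3%. Under siFEM1B 5 were called higher, against 28.2% of tested genes, and 20 lower, against 26.4%. In either direction that is 20 of 45 and 25 of 45, where 50.5% and 54.6% of tested genes were called. The libraries did not overlap for 3 higher and 23 lower genes under siCTRL (60.3% of tested genes in either direction) and for 3 higher and 21 lower under siFEM1B (57.0%). The 5 higher under siFEM1B became 2 without replicate 1 of sgCTRL with siFEM1B and 7 without its replicate 3. The median log2 fold change was -0.11 under siCTRL and -0.12 under siFEM1B, beside -0.02 and 0.01 over all tested genes. The genes called lower under both siRNAs were Psma3, Psma6, Psmb4, Psmc1, Psmc3, Psmd1, Psmd2, Psmd3, Psmd4, Psmd5, Psmd7, Psmd11, Psmd13, Psme4 and Psmf1, and those called higher under both were Psma4 and Psmc6.

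**Figure D1:**
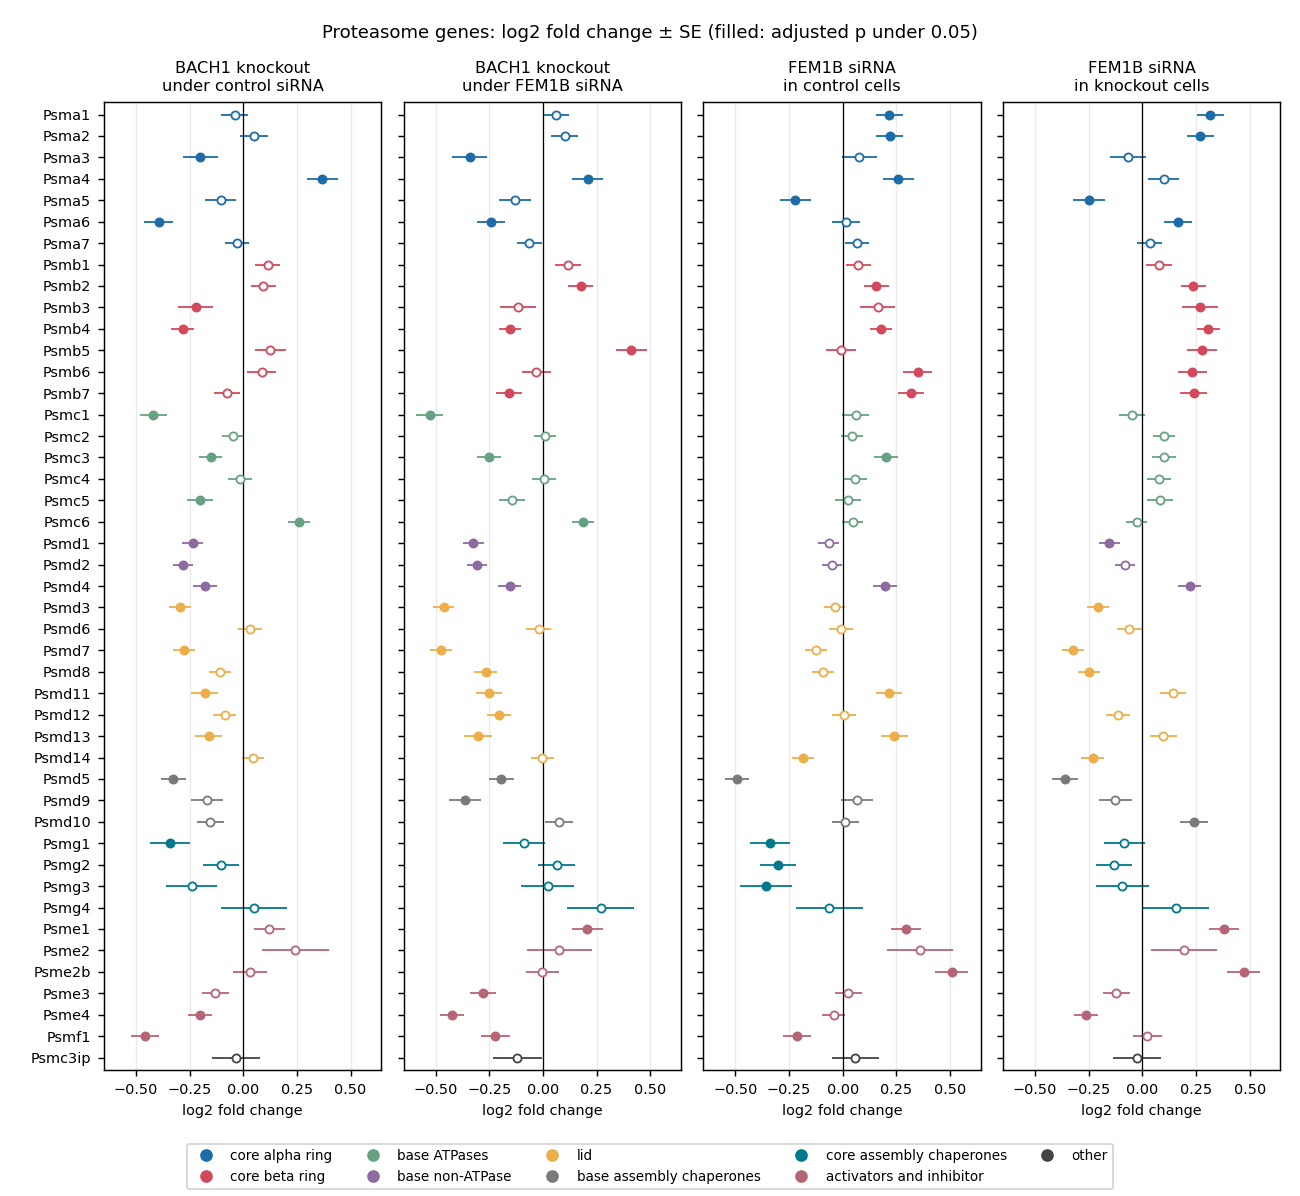
Log2 fold change with SE (x axis) of each of the 45 genes (rows, coloured by role) in the 4 comparisons. Filled points passed an adjusted p under 0.05: 6 of 7 beta ring genes lie to the right with a call with siFEM1B in sgBACH1 cells, and Psmc1, Psmd1, Psmd2, Psmd3 and Psmd7 to the left with BACH1 knockout, where Psmc6 lies to the right.

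Transcript length and chromosome moved with these comparisons. Over all tested genes with a length, siFEM1B in sgBACH1 cells had a median log2 fold change of 0.17 for transcripts under 1000 bases, 0.12 from 1000 to 2000, 0.01 from 2000 to 4000 and -0.08 over 4000. The same medians were 0.11, 0.03, -0.01 and -0.04 in sgCTRL cells. Beta ring transcripts had a median length of 899 bases and lid transcripts 1742.5 bases. With a smoothed length trend removed from each group, 5 of the 45 genes were called higher and 12 lower with siFEM1B in sgBACH1 cells, and 11 higher and 7 lower in sgCTRL cells. Of all 13281 tested genes, 2822 were then called higher and 2448 lower in sgBACH1 cells, and 3182 and 2698 in sgCTRL cells. With that trend removed BACH1 knockout gave 2 of the 45 genes higher and 20 lower under siCTRL, and 2 higher and 27 lower under siFEM1B. Of all 13281 tested genes it gave 3309 higher and 3286 lower under siCTRL, and 3475 and 3523 under siFEM1B.

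**Figure D2:**
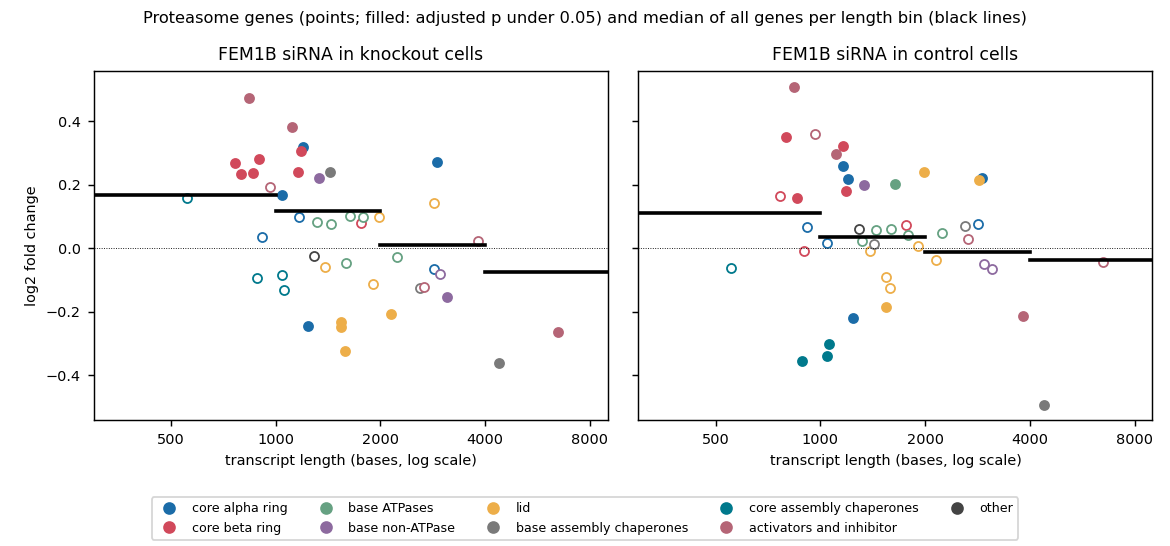
Log2 fold change with siFEM1B (y axis) against transcript length in bases (x axis, log scale) for the 45 genes in sgBACH1 cells (left) and sgCTRL cells (right). Black lines give the median of all tested genes in 4 length bins, which is 0.17 in the shortest bin and -0.08 in the longest on the left, and 0.11 and -0.04 on the right.

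Whole chromosomes differed between the knockout and control lines. The median log2 fold change of all tested genes in sgBACH1 against sgCTRL cells under siCTRL was -0.28 on chromosome 12, 0.27 on chromosome 9 and 0.25 on chromosome 14. Psma3, Psma6 and Psmc1 lie on chromosome 12, Psma4 on chromosome 9, and Psmb5, Psmc6, Psmd6, Psme1 and Psme2 on chromosome 14. With each chromosome's median removed, 1 gene was called higher and 13 lower under siCTRL, and 2 higher and 14 lower under siFEM1B. The siFEM1B comparisons gave the same numbers of calls as before this step.

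**Figure D3:**
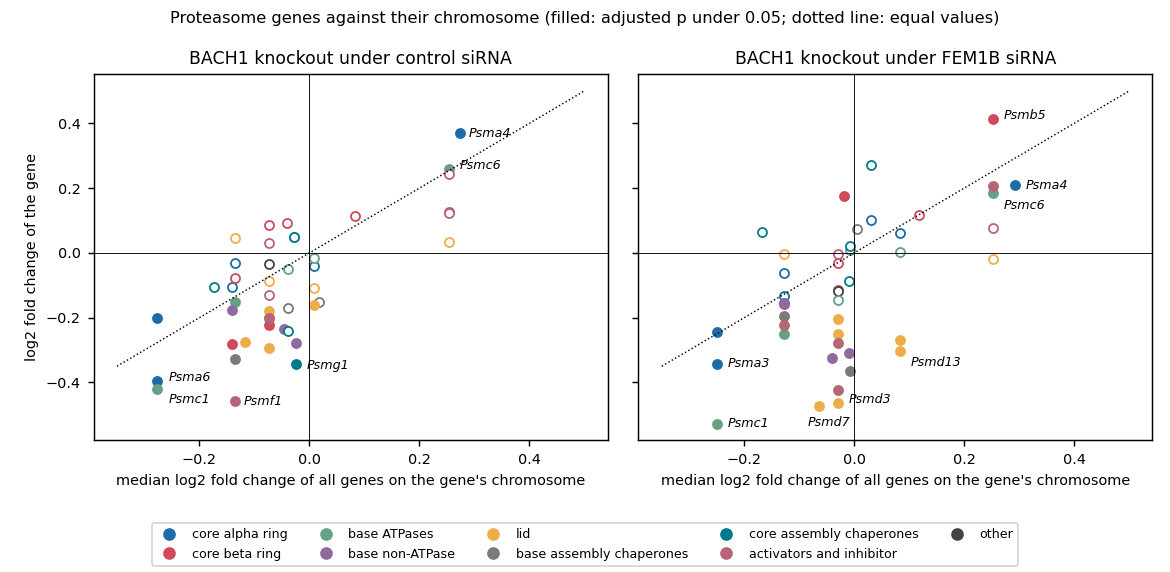
Log2 fold change of each of the 45 genes with BACH1 knockout (y axis) against the median of all tested genes on its chromosome (x axis), under siCTRL (left) and siFEM1B (right). Under siCTRL Psmc6 lies on the dotted line of equal values (0.26 beside a median of 0.25) and Psma4 above it (0.37 beside 0.27), while Psmf1, Psmd3 and Psmd7 lie below it in both panels.

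In the alpha ring, which gates the core, 3 of 7 genes rose and 1 fell with siFEM1B in each cell line. Of all tested genes 21.9% were called higher and 19.8% lower in sgBACH1 cells, and 22.1% and 22.9% in sgCTRL cells. The ring's median log2 fold change was 0.10 in sgBACH1 cells and 0.08 in sgCTRL cells. Psma1, an alpha ring subunit, had 209, 208 and 229 CPM in sgBACH1 cells with siFEM1B against 170.0, 174 and 174 CPM with siCTRL. In sgCTRL cells it had 197, 193 and 229.9 CPM with siFEM1B against 183, 177 and 173 CPM with siCTRL. Neither pair of groups overlapped, and the log2 fold changes were 0.32 ± 0.06 (SE, adjusted p = 0.00039) in sgBACH1 cells and 0.22 ± 0.06 (adjusted p = 0.0074) in sgCTRL cells. Psma2, another alpha ring subunit, rose by 0.27 ± 0.06 and 0.22 ± 0.06 (adjusted p = 0.0018 and 0.0078). The calls of Psma1 and Psma2 held under all 22 alternatives, the removal of the length trend among them. Psma5 went the other way, with -0.25 ± 0.07 in sgBACH1 cells and -0.22 ± 0.07 in sgCTRL cells (adjusted p = 0.011 and 0.018). The call was lost in sgBACH1 cells without replicate 2 of siCTRL or 3 of siFEM1B (adjusted p = 0.052 and 0.0818), and in sgCTRL cells without replicate 2 of siCTRL or 3 of siFEM1B (adjusted p = 0.0502 and 0.0734) or with the GC trend removed (-0.17, adjusted p = 0.0621). Of its 50-base stretches 54.5% also occur in transcripts of other loci, so its counts are uncertain. Psma7, another alpha ring subunit, was called in none of the 4 comparisons (log2 fold changes -0.06 to 0.07). With the length trend removed it was called lower with knockout under siFEM1B (-0.23, adjusted p = 0.0021) and with siFEM1B in sgBACH1 cells (-0.14, adjusted p = 0.0492).

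Under BACH1 knockout the alpha ring had 1 gene higher and 2 lower of 7 under each siRNA. Of all tested genes 24.2% were called higher and 26.3% lower under siCTRL, and 28.2% and 26.4% under siFEM1B. Psma4 had 151, 167 and 158 CPM in sgBACH1 cells against 118, 131 and 121 CPM in sgCTRL cells under siCTRL, and 164, 173 and 174 CPM against 135, 137 and 169.6 CPM under siFEM1B. Only under siCTRL did the groups not overlap. Its log2 fold change was 0.37 ± 0.07 (adjusted p = 0.00029) under siCTRL and 0.21 ± 0.07 (adjusted p = 0.020) under siFEM1B. With the median of chromosome 9 removed these were 0.09 (adjusted p = 0.323) and -0.07 (adjusted p = 0.443), so the direction turned under siFEM1B. The siFEM1B call was also lost without replicate 1 or 2 of sgCTRL with siFEM1B or replicate 3 of sgBACH1 with siFEM1B (adjusted p = 0.107, 0.111 and 0.0623), and with the length trend removed (0.06, adjusted p = 0.477).

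Psma6, another alpha ring subunit, had 111, 121 and 111 CPM in sgBACH1 cells against 158, 147 and 145 CPM in sgCTRL cells under siCTRL, and 136, 114 and 135 CPM against 158, 146 and 151 CPM under siFEM1B. The groups did not overlap under either siRNA. The log2 fold changes were -0.39 ± 0.07 (adjusted p = 4.8e-05) and -0.24 ± 0.07 (adjusted p = 0.0040). With the median of chromosome 12 removed they were -0.16 (adjusted p = 0.0593) and 0.02 (adjusted p = 0.817). Psma3, on the same chromosome, had -0.20 ± 0.08 (adjusted p = 0.0496) under siCTRL and -0.34 ± 0.08 (adjusted p = 0.0017) under siFEM1B. After that removal the siCTRL value turned to 0.04 (adjusted p = 0.735) and the siFEM1B value was -0.08 (adjusted p = 0.450). The siCTRL call was also lost with RLE size factors, with DESeq2, with a filter of 10 counts in 3 libraries and with the length trend removed (adjusted p = 0.0506 to 0.0705). It was lost without replicate 1 or 3 of sgCTRL with siCTRL, replicate 2 or 3 of sgCTRL with siFEM1B, any replicate of sgBACH1 with siCTRL, or replicate 1 or 3 of sgBACH1 with siFEM1B (adjusted p = 0.0525 to 0.250). With siFEM1B in sgBACH1 cells Psma6 was called at 0.17 ± 0.07 (adjusted p = 0.0495) although the groups overlapped. That call was lost without replicate 2 or 3 of sgCTRL with siCTRL or with siFEM1B, or replicate 1 or 3 of sgBACH1 with siCTRL or with siFEM1B (adjusted p = 0.0564 to 0.212). It was also lost with RLE size factors, with DESeq2, with only the compared libraries and with the replicate block (adjusted p = 0.0556, 0.0555, 0.0836 and 0.0646). The value was 0.01 (adjusted p = 0.923) with the length trend removed.

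The beta ring carries the proteolytic sites, in Psmb5 (chymotrypsin-like), Psmb6 (caspase-like) and Psmb7 (trypsin-like). With siFEM1B 6 of its 7 genes were called higher in sgBACH1 cells and 4 of 7 in sgCTRL cells, against 21.9% and 22.1% of tested genes. None was called lower in either, against 19.8% and 22.9%. Its median log2 fold change was 0.24 in sgBACH1 cells and 0.16 in sgCTRL cells. With the length trend removed, 1 of 7 was called higher in sgBACH1 cells (median 0.06) and 2 of 7 in sgCTRL cells (median 0.08). With BACH1 knockout 0 of 7 were called higher and 2 lower under siCTRL, against 24.2% and 26.3% of tested genes. Under siFEM1B knockout gave 2 higher and 2 lower, against 28.2% and 26.4%.

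Psmb6 had 233, 207 and 214 CPM in sgBACH1 cells with siFEM1B against 187, 195 and 174 CPM with siCTRL, and 209.6, 212 and 246 CPM in sgCTRL cells with siFEM1B against 183, 178 and 163 CPM with siCTRL. The groups did not overlap in either cell line. The log2 fold changes were 0.23 ± 0.07 (adjusted p = 0.0091) in sgBACH1 cells and 0.35 ± 0.07 (adjusted p = 0.00030) in sgCTRL cells. In sgBACH1 cells the call was lost without replicate 3 of siCTRL or replicate 1 of siFEM1B (adjusted p = 0.0616 and 0.0656). The sgBACH1 value was 0.03 (adjusted p = 0.723) with the length trend removed and 0.16 (adjusted p = 0.0738) with the GC trend removed, while the sgCTRL call held under all 22 alternatives.

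Psmb7 had 223, 228 and 220.4 CPM in sgBACH1 cells with siFEM1B against 189.6, 193 and 186 CPM with siCTRL, and 248, 230.0 and 271 CPM in sgCTRL cells with siFEM1B against 216, 187 and 198 CPM with siCTRL. The groups did not overlap in either cell line. The log2 fold changes were 0.24 ± 0.06 (adjusted p = 0.0038) and 0.32 ± 0.06 (adjusted p = 0.00026). In sgBACH1 cells the value was 0.10 (adjusted p = 0.215) with the length trend removed. With knockout under siFEM1B Psmb7 was called lower, a call that held under 16 of 22 alternatives (log2 fold changes -0.30 to -0.06).

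Psmb4, a beta ring subunit with no proteolytic site, had 306, 306 and 304 CPM in sgBACH1 cells with siFEM1B against 241, 262 and 238 CPM with siCTRL, and 339, 327 and 354 CPM in sgCTRL cells with siFEM1B against 314, 286 and 301 CPM with siCTRL. It was the beta ring gene with the smallest p among the 4 groups. With siFEM1B it rose by 0.31 ± 0.05 (adjusted p = 0.00011) in sgBACH1 cells, a call that held under all 22 alternatives, and by 0.18 ± 0.05 (adjusted p = 0.0091) in sgCTRL cells. With BACH1 knockout it fell, its log2 fold change being -0.28 ± 0.05 (adjusted p = 0.00016) under siCTRL and by -0.15 ± 0.05 (adjusted p = 0.018) under siFEM1B. The last of these calls was lost without replicate 3 of sgBACH1 with siFEM1B (adjusted p = 0.051) and with the median of chromosome 3 removed (-0.03, adjusted p = 0.664). The rise in sgCTRL cells was lost without replicate 2 of sgCTRL with siCTRL (adjusted p = 0.0571) and with the length trend removed (0.13, adjusted p = 0.0579).

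Psmb5, the subunit that bortezomib-type inhibitors bind, had 80.0, 75.7 and 70.8 CPM in sgBACH1 cells with siFEM1B against 57.8, 67.6 and 61.4 CPM with siCTRL. In sgCTRL cells it had 54.1, 54.4 and 62.0 CPM with siFEM1B against 57.8, 55.8 and 57.7 CPM with siCTRL. The sgBACH1 libraries with siFEM1B thus stood above all 9 others. The log2 fold change with siFEM1B was 0.28 ± 0.07 (adjusted p = 0.0036) in sgBACH1 cells and -0.01 ± 0.07 (adjusted p = 0.95) in sgCTRL cells. The sgBACH1 value was 0.10 (adjusted p = 0.294) with the length trend removed. The difference between these effects was 0.29 ± 0.10 with an adjusted p of 0.0927, the smallest of any of the 45 genes, so it did not pass. With knockout Psmb5 was 0.41 ± 0.07 higher under siFEM1B (adjusted p = 6.6e-05), and 0.16 (adjusted p = 0.0626) with the median of chromosome 14 removed. Of its 50-base stretches 54.1% occur in transcripts of other loci, so its counts are uncertain.

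Of the beta subunits without a proteolytic site, Psmb2 rose with siFEM1B by 0.24 ± 0.06 in sgBACH1 cells (adjusted p = 0.0026) and by 0.16 ± 0.06 in sgCTRL cells (adjusted p = 0.034). The sgCTRL call was lost without replicate 2 or 3 of sgCTRL with siCTRL or replicate 2 or 3 of sgCTRL with siFEM1B (adjusted p = 0.0544 to 0.159). With the length trend removed Psmb2 was at 0.05 in sgBACH1 cells (adjusted p = 0.534) and 0.06 in sgCTRL cells (adjusted p = 0.458). Psmb3 rose by 0.27 ± 0.08 in sgBACH1 cells (adjusted p = 0.013), a call lost without replicate 1 of siCTRL or replicate 1 of siFEM1B (adjusted p = 0.0585 and 0.0718) and with the length trend removed (0.06, adjusted p = 0.572). Of its 50-base stretches 55.8% occur in transcripts of other loci, so its counts are uncertain. With knockout Psmb2 was called higher under siFEM1B, which held under 19 of 22 alternatives (log2 fold changes 0.002 to 0.21). Psmb3 was called lower with knockout under siCTRL, which held under 16 of 22 (-0.32 to -0.15). Psmb1 was called in none of the 4 comparisons (0.07 to 0.12).

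The immunoproteasome subunits that replace Psmb5, Psmb6 and Psmb7 had few or no counts apart from Psmb10. Psmb9 had no count and Psmb8 at most 2 counts in any library. Psmb10 had 28.9, 26.1 and 27.3 CPM in sgBACH1 cells with siFEM1B against 18.4, 20.8 and 18.3 CPM with siCTRL, and 40.9, 38.1 and 40.2 CPM in sgCTRL cells with siFEM1B against 27.6, 25.1 and 25.2 CPM with siCTRL. Each pair of groups was apart. It rose with siFEM1B by 0.52 ± 0.08 in sgBACH1 cells (adjusted p = 4.0e-05) and 0.61 ± 0.08 in sgCTRL cells (adjusted p = 2.6e-06). With knockout it fell, its log2 fold change being -0.53 ± 0.08 under siFEM1B (adjusted p = 8.4e-06) and -0.44 ± 0.08 under siCTRL (adjusted p = 0.00014).

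**Figure D4:**
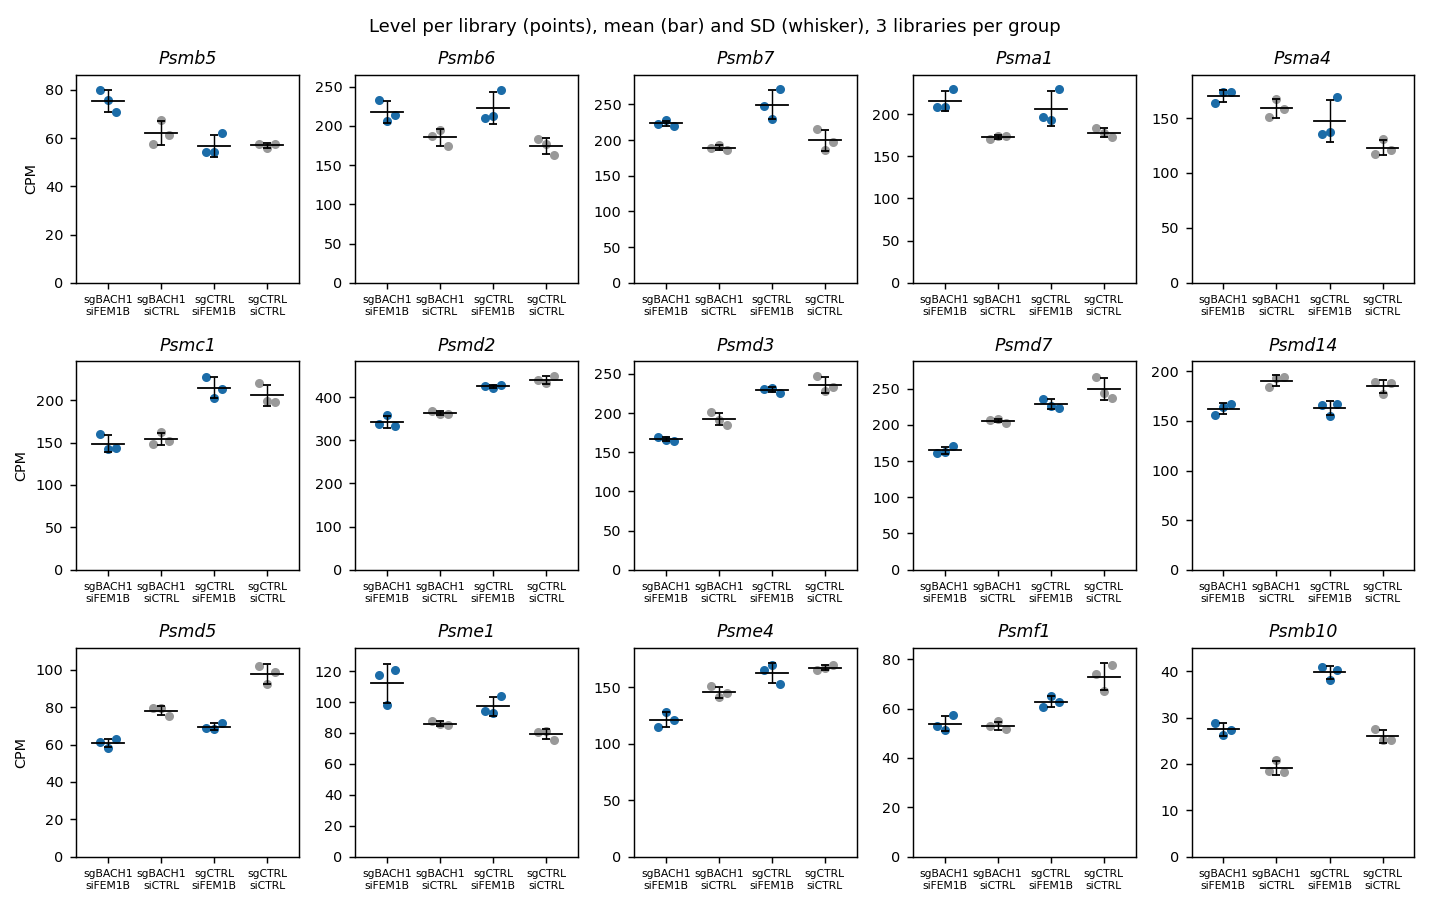
CPM of 14 of the proteasome genes and of Psmb10 in each library (points; blue, siFEM1B; grey, siCTRL), with the group mean (bar) and SD (whisker), all axes from 0. Psmb5 is highest in the 3 sgBACH1 libraries with siFEM1B, at 70.8 to 80.0 CPM, and Psmd7 is lowest there, at 161 to 171 CPM.

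With BACH1 knockout, 3 of the 6 ATPases of the base were called lower and 1 higher under siCTRL, and 2 lower and 1 higher under siFEM1B (median -0.10 and -0.07). All 3 non-ATPase subunits were called lower under both siRNAs. Of all tested genes 26.3% were called lower and 24.2% higher under siCTRL, and 26.4% and 28.2% under siFEM1B. With chromosome medians removed, 1 ATPase was lower under siCTRL and 2 under siFEM1B, and 2 of the 3 non-ATPase subunits were lower under each siRNA, with none higher. Psmc1, the ATPase with the largest change, had 148, 162 and 151 CPM in sgBACH1 cells against 220.1, 199 and 198 CPM in sgCTRL cells under siCTRL, and 160.2, 143 and 144 CPM against 228, 203 and 214 CPM under siFEM1B. The groups were apart under both siRNAs. It fell, its log2 fold change being -0.42 ± 0.06 (adjusted p = 1.2e-05) and -0.53 ± 0.06 (adjusted p = 6.3e-07), and both calls held under all 22 alternatives, the removal of the chromosome 12 median among them.

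Psmc6, another ATPase, was the base gene called higher. It had 295, 309 and 296 CPM in sgBACH1 cells against 252, 254 and 246 CPM in sgCTRL cells under siCTRL, and 291, 297 and 295 CPM against 258, 245 and 273 CPM under siFEM1B. The groups did not overlap, and the log2 fold changes were 0.26 ± 0.05 (adjusted p = 0.00020) and 0.19 ± 0.05 (adjusted p = 0.0034). With the median of chromosome 14 removed they were 0.00 (adjusted p = 0.979) and -0.06 (adjusted p = 0.313), so the direction under siFEM1B turned. The siFEM1B value was 0.10 (adjusted p = 0.105) with the GC trend removed.

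Of the other ATPases, Psmc3 fell with knockout under siFEM1B (-0.25 ± 0.05, adjusted p = 0.00065) and under siCTRL (-0.15 ± 0.05, adjusted p = 0.026). The siCTRL call was lost without replicate 1 or 2 of sgCTRL with siCTRL or replicate 1 or 3 of sgBACH1 with siCTRL (adjusted p = 0.0593 to 0.108), with the chromosome median removed (-0.03, adjusted p = 0.649) and with the GC trend removed (-0.13, adjusted p = 0.0517). It rose with siFEM1B in sgCTRL cells (0.20 ± 0.05, adjusted p = 0.0051). Psmc5 fell with knockout under siCTRL (-0.20 ± 0.06, adjusted p = 0.0088) and just missed the threshold under siFEM1B (-0.14 ± 0.06, adjusted p = 0.0502). Its siCTRL value was -0.13 (adjusted p = 0.0799) with chromosome medians removed. Psmc2 and Psmc4 were called in none of the 4 comparisons.

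Psmd2 and Psmd1 encode the large scaffold subunits of the base, and Psmd4 a receptor for ubiquitin chains. Psmd2 had 367, 360.2 and 361 CPM in sgBACH1 cells against 439, 432 and 449 CPM in sgCTRL cells under siCTRL, and 338, 359 and 332 CPM against 425, 422 and 427 CPM under siFEM1B. No library of one line reached the other line. Psmd2 fell, its log2 fold change being -0.28 ± 0.05 (adjusted p = 4.4e-05) and -0.31 ± 0.05 (adjusted p = 1.3e-05), and Psmd1 by -0.24 ± 0.05 (adjusted p = 0.00044) and -0.33 ± 0.05 (adjusted p = 1.4e-05). These 4 calls held under all 22 alternatives. Of the 50-base stretches of Psmd2 25.6% occur in transcripts of other loci.

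Psmd4 moved in opposite directions in the 2 kinds of comparison. It had 242, 248 and 252 CPM in sgBACH1 cells with siFEM1B, 213, 217 and 207 CPM in sgBACH1 cells with siCTRL, 262, 262 and 302 CPM in sgCTRL cells with siFEM1B and 246, 237 and 237 CPM in sgCTRL cells with siCTRL. With siFEM1B it rose by 0.22 ± 0.06 in sgBACH1 cells (adjusted p = 0.0034) and 0.20 ± 0.06 in sgCTRL cells (adjusted p = 0.0062). The sgBACH1 value was 0.10 (adjusted p = 0.150) with the length trend removed. With knockout it fell, its log2 fold change being -0.18 ± 0.06 under siCTRL (adjusted p = 0.012) and -0.16 ± 0.06 under siFEM1B (adjusted p = 0.023). The knockout values were -0.05 and -0.03 (adjusted p = 0.500 and 0.663) with the median of chromosome 3 removed. The siCTRL knockout call was lost without replicate 3 of sgBACH1 with siCTRL (adjusted p = 0.0528), and the siFEM1B one without replicate 3 of sgCTRL with siFEM1B or replicate 1 of sgBACH1 with siFEM1B (adjusted p = 0.0918 and 0.0831).

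In the lid, which carries the deubiquitinase, 4 of 8 genes fell with knockout under siCTRL and 6 of 8 under siFEM1B, and none rose. Of all tested genes 26.3% and 26.4% were called lower in these comparisons, and 24.2% and 28.2% higher. The lid's median log2 fold change was -0.13 under siCTRL and -0.26 under siFEM1B. With chromosome medians removed 5 fell and 1, Psmd14, rose under siCTRL, and 7 fell and none rose under siFEM1B. With siFEM1B 4 of 8 fell and none rose in sgBACH1 cells (median -0.16), while 2 rose and 1 fell in sgCTRL cells (median -0.02). Of all tested genes siFEM1B gave 19.8% lower and 21.9% higher in sgBACH1 cells, and 22.9% and 22.1% in sgCTRL cells. Psmd7, which pairs with the deubiquitinase, had 161, 163 and 171 CPM in sgBACH1 cells with siFEM1B, 207, 208 and 203 CPM in sgBACH1 cells with siCTRL, 236, 226 and 224 CPM in sgCTRL cells with siFEM1B and 266, 244 and 237 CPM in sgCTRL cells with siCTRL. No 2 of these groups overlapped. The knockout differences were -0.27 ± 0.05 under siCTRL (adjusted p = 0.00018) and -0.47 ± 0.05 under siFEM1B (adjusted p = 2.7e-07). The siFEM1B differences were -0.32 ± 0.05 in sgBACH1 cells (adjusted p = 5.9e-05) and -0.12 ± 0.05 in sgCTRL cells (adjusted p = 0.057), where it was called with the length trend removed (-0.13, adjusted p = 0.0444).

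Psmd3, a lid scaffold subunit, had 169.5, 166 and 164 CPM in sgBACH1 cells with siFEM1B, 201, 191 and 185 CPM in sgBACH1 cells with siCTRL, 231, 232 and 226 CPM in sgCTRL cells with siFEM1B and 247, 228 and 233 CPM in sgCTRL cells with siCTRL. Only the last pair of groups overlapped. Knockout changed it by -0.29 ± 0.05 under siCTRL (adjusted p = 5.5e-05) and -0.46 ± 0.05 under siFEM1B (adjusted p = 2.0e-07), and siFEM1B by -0.21 ± 0.05 in sgBACH1 cells (adjusted p = 0.0026). The called values of Psmd3 and Psmd7 held under all 22 alternatives. Psmd8, another lid subunit, fell with siFEM1B in sgBACH1 cells (-0.25 ± 0.05, adjusted p = 0.00069) and with knockout under siFEM1B (-0.27 ± 0.05, adjusted p = 0.00022).

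The lid subunits Psmd11 and Psmd13 moved up with siFEM1B in sgCTRL cells (0.21 ± 0.06 and 0.24 ± 0.06, adjusted p = 0.0075 and 0.0044) and down with knockout under siFEM1B (-0.25 ± 0.06 and -0.30 ± 0.06, adjusted p = 0.0019 and 0.00050). Their calls with knockout under siCTRL were less stable. That of Psmd11 held under 18 of 22 alternatives (highest adjusted p 0.156) and that of Psmd13 under 13 of 22 (highest adjusted p 0.222). Psmd12 fell with knockout under siFEM1B (-0.20 ± 0.05, adjusted p = 0.0038), and its value under siCTRL was -0.09 ± 0.05 (adjusted p = 0.20). Psmd6 was called in none of the 4 comparisons (-0.06 to 0.03). With the median of chromosome 14 removed it was called lower with knockout under siCTRL (-0.23, adjusted p = 0.0029) and under siFEM1B (-0.27, adjusted p = 0.00058). With the length trend removed it was called lower with knockout under siFEM1B (-0.14, adjusted p = 0.0431) and with siFEM1B in sgBACH1 cells (-0.17, adjusted p = 0.0224).

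Psmd14, the deubiquitinase of the lid, did not pass with knockout (0.05 ± 0.05 under siCTRL, -0.00 ± 0.05 under siFEM1B, adjusted p = 0.49 and 0.97). With chromosome medians removed it was called higher under siCTRL (0.16, adjusted p = 0.0146). It had 156, 164 and 168 CPM in sgBACH1 cells with siFEM1B against 184, 193 and 194 CPM with siCTRL, and 166, 155 and 167 CPM in sgCTRL cells with siFEM1B against 189.5, 177 and 188 CPM with siCTRL. The siFEM1B libraries were below the siCTRL ones in both lines, and it fell, its log2 fold change being -0.23 ± 0.05 in sgBACH1 cells (adjusted p = 0.0014) and -0.18 ± 0.05 in sgCTRL cells (adjusted p = 0.0072). With a GC trend removed the sgCTRL value was -0.11 (adjusted p = 0.103).

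The ratios below combine changes already given for the core, the lid and the base in the same libraries, so they are not a separate result. The ratio of summed beta ring to summed lid levels differed between the groups. It was 1.23 to 1.32 in the sgBACH1 libraries with siFEM1B, 0.941 to 1.01 in those with siCTRL, 1.01 to 1.11 in the sgCTRL libraries with siFEM1B and 0.881 to 0.906 in those with siCTRL. The ranges of both siFEM1B groups lay above their siCTRL groups, and those of both sgBACH1 groups above their sgCTRL groups. The core to regulatory particle ratio, over 14 and 17 genes, was 0.813 to 0.844, 0.700 to 0.726, 0.702 to 0.752 and 0.644 to 0.672 in the same order of groups. Transcript lengths differ between these sets as given above, their part in the ratios was not tested, and no test was made of the ratios. In sgBACH1 against sgCTRL cells the mean beta ring sum was 1183 against 1207 CPM under siCTRL and 1373 against 1381 CPM under siFEM1B. The mean lid sum was 1222 against 1349 CPM under siCTRL and 1089 against 1316 CPM under siFEM1B. The higher beta ring to lid ratio in sgBACH1 cells thus came with a lower lid sum and no higher beta ring sum.

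**Figure D5:**
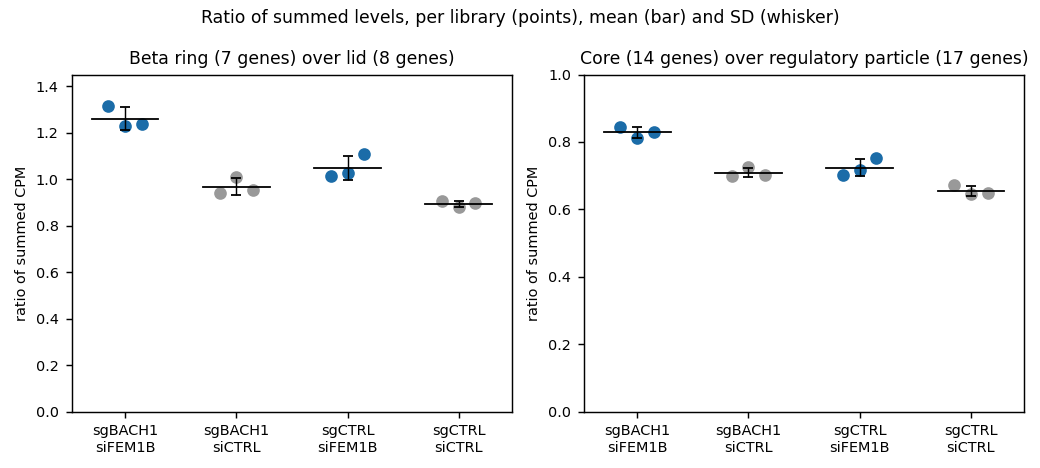
Ratio of summed CPM (y axis, from 0) of beta ring to lid genes (left) and of core to regulatory particle genes (right) in each library (points), with group mean (bar) and SD (whisker). The sgBACH1 libraries with siFEM1B are highest in both panels, at 1.23 to 1.32 and 0.813 to 0.844.

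The chaperones of base and core assembly counted here fell where they were called, apart from Psmd10. The maturation factor Pomp, which rose with siFEM1B, is not among them and is given below. With chromosome medians removed, 1 of the 4 core assembly chaperones was called higher with knockout under siFEM1B and none lower. Psmd5, a chaperone that holds base ATPases during assembly, had 61.4, 58.2 and 62.8 CPM in sgBACH1 cells with siFEM1B, 79.5, 79.3 and 75.3 CPM in sgBACH1 cells with siCTRL, 68.9, 68.1 and 71.6 CPM in sgCTRL cells with siFEM1B and 102, 92.2 and 99.0 CPM in sgCTRL cells with siCTRL. None of the groups overlapped. It fell with siFEM1B, its log2 fold change being -0.36 ± 0.06 in sgBACH1 cells (adjusted p = 6.7e-05) and -0.49 ± 0.06 in sgCTRL cells (adjusted p = 1.2e-06), which held under all 22 alternatives. With knockout it fell, its log2 fold change being -0.33 ± 0.06 under siCTRL (adjusted p = 9.0e-05) and -0.19 ± 0.06 under siFEM1B (adjusted p = 0.0091), and the second of these was -0.09 (adjusted p = 0.215) with the median of chromosome 2 removed. Psmd10, the oncoprotein gankyrin, rose by 0.24 ± 0.06 with siFEM1B in sgBACH1 cells (adjusted p = 0.0054), and the value was 0.14 (adjusted p = 0.101) with the length trend removed. Psmd9, a chaperone of the base, fell with knockout under siFEM1B (-0.36 ± 0.08, adjusted p = 0.00041).

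Of the core assembly chaperones, which pair up to build the alpha ring, Psmg1, Psmg2 and Psmg3 fell with siFEM1B in sgCTRL cells and none of the 4 was called in sgBACH1 cells. Of all tested genes 22.9% were called lower in sgCTRL cells, and 41.7% were called in either direction in sgBACH1 cells. Psmg1 had 28.0, 21.1 and 25.6 CPM in sgBACH1 cells with siFEM1B against 27.0, 27.1 and 25.1 CPM with siCTRL, and 25.2, 25.7 and 28.6 CPM in sgCTRL cells with siFEM1B against 35.7, 30.7 and 33.9 CPM with siCTRL. Only the sgCTRL groups were apart. The log2 fold changes were -0.08 ± 0.10 (adjusted p = 0.52) in sgBACH1 cells and -0.34 ± 0.09 (adjusted p = 0.0061) in sgCTRL cells, and their difference, 0.25 ± 0.13, did not pass (adjusted p = 0.26). Psmg2 fell, its log2 fold change being -0.30 ± 0.08 (adjusted p = 0.0062) in sgCTRL cells. Psmg3 fell, its log2 fold change being -0.36 ± 0.12 (adjusted p = 0.021), a call lost without replicate 1 of siCTRL or replicate 1 or 2 of siFEM1B (adjusted p = 0.0724, 0.108 and 0.0936).

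Among the activators, Psme1 and Psme2b rose with siFEM1B in both lines, and the large activator Psme4 fell with it in sgBACH1 cells. Psme1, a subunit of the interferon-inducible 11S cap, had 118, 97.8 and 121 CPM in sgBACH1 cells with siFEM1B against 87.6, 85.6 and 85.1 CPM with siCTRL, and 94.2, 93.2 and 104 CPM in sgCTRL cells with siFEM1B against 80.7, 81.1 and 75.5 CPM with siCTRL. The groups were apart in both lines, and it rose by 0.38 ± 0.07 (adjusted p = 0.00023) and 0.30 ± 0.07 (adjusted p = 0.0021). Both calls held under all 22 alternatives. With knockout under siFEM1B it was 0.21 ± 0.07 higher (adjusted p = 0.017), and -0.04 (adjusted p = 0.656) with the median of chromosome 14 removed or 0.06 (adjusted p = 0.503) with the length trend removed. That call was also lost without replicate 1 or 2 of sgCTRL with siFEM1B or replicate 1 or 3 of sgBACH1 with siFEM1B (adjusted p = 0.0577, 0.0758, 0.0855 and 0.110).

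Psme2b, a near copy of Psme2 that shares 69.3% of its 50-base stretches with other loci, had 63.4, 58.4 and 59.0 CPM in sgBACH1 cells with siFEM1B against 40.0, 48.0 and 42.3 CPM with siCTRL, and 55.7, 59.2 and 66.6 CPM in sgCTRL cells with siFEM1B against 40.8, 42.4 and 44.3 CPM with siCTRL. The groups were apart, with rises of 0.47 ± 0.08 (adjusted p = 7.0e-05) and 0.51 ± 0.08 (adjusted p = 2.6e-05), the largest rises of the 45 genes in both lines. Psme2, the second subunit of the cap, was listed at 5.65 to 9.31 CPM and was not called (0.19 ± 0.15 and 0.36 ± 0.16, adjusted p = 0.33 and 0.066). Counts cannot be assigned with certainty between these copies.

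Psme4, which encodes the activator PA200, had 115, 129 and 121 CPM in sgBACH1 cells with siFEM1B, 151, 141 and 145 CPM in sgBACH1 cells with siCTRL, 166, 169.5 and 153 CPM in sgCTRL cells with siFEM1B and 166, 167 and 170.1 CPM in sgCTRL cells with siCTRL. Only the sgCTRL groups overlapped. It fell with siFEM1B, its log2 fold change being -0.26 ± 0.06 in sgBACH1 cells (adjusted p = 0.00079), while in sgCTRL cells it was -0.04 ± 0.06 (adjusted p = 0.56). The difference of -0.22 ± 0.08 had an adjusted p of 0.094. With knockout it fell, its log2 fold change being -0.20 ± 0.06 under siCTRL (adjusted p = 0.0050) and -0.42 ± 0.06 under siFEM1B (adjusted p = 2.7e-06), and the siCTRL value was -0.13 (adjusted p = 0.0585) with chromosome medians removed. Its transcript, of 6491 bases, is the longest of the 45. Psme3, which encodes the nuclear activator PA28 gamma, fell with knockout under siFEM1B (-0.28 ± 0.06, adjusted p = 0.00078).

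Psmf1, which encodes the proteasome inhibitor PI31, had 52.8, 54.8 and 51.6 CPM in sgBACH1 cells against 74.0, 67.1 and 77.7 CPM in sgCTRL cells under siCTRL, and 53.1, 51.3 and 57.5 CPM against 60.8, 65.1 and 62.6 CPM under siFEM1B. The lines were apart under both siRNAs. It fell, its log2 fold change being -0.46 ± 0.07 (adjusted p = 9.0e-06), the largest fall of the 45 genes under siCTRL, and by -0.22 ± 0.07 (adjusted p = 0.0086). The second was -0.12 (adjusted p = 0.153) with the median of chromosome 2 removed. With siFEM1B it fell, its log2 fold change being -0.21 ± 0.07 in sgCTRL cells (adjusted p = 0.011), a call lost without replicate 3 of sgCTRL with siCTRL (adjusted p = 0.0786) and with the length trend removed (-0.15, adjusted p = 0.0704), and was at 0.02 ± 0.07 in sgBACH1 cells (adjusted p = 0.82).

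None of the 45 genes passed edgeR's test of the difference between the siFEM1B effects in the 2 lines. At an adjusted p under 0.05 it called 0 of the 45, against 6.08% of all tested genes (3.48% higher and 2.60% lower), and 7 had an unadjusted p under 0.05. DESeq2 called 2, Psmd7 and Psme4, both with a lower siFEM1B effect in sgBACH1 cells, and edgeR called Psmd7 with the length trend removed (-0.28, adjusted p = 0.0354). Without replicate 3 of sgCTRL with siFEM1B edgeR called Psmb5, Psmd7 and Psme4 (adjusted p = 0.0468, 0.0490 and 0.0206). Without replicate 2 of sgBACH1 with siCTRL it called Psmb5 (adjusted p = 0.0495), and without replicate 2 of sgBACH1 with siFEM1B Psme4 and Psmg1 (adjusted p = 0.0296 and 0.0498). The fitted differences ran from -0.22 to 0.29 on the log2 scale. So a siFEM1B call in one line alone, as for the lid and the core chaperones, is not shown to differ from the other line.

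Per base of transcript the genes differed widely in level. In sgCTRL cells with siCTRL, mean CPM per kilobase of 1 transcript per gene was 429.6 for Psma7, an alpha ring subunit, and 254 for Psmb4. These levels depend on the length used: the merged exons of Psma7 span 3071 bases and those of Psmb4 1951, against 914 and 1183 for the transcripts taken, and the order of this pair turns with merged exons. Per kilobase of transcript the level was 63.5 for the catalytic Psmb5, beside 219 for Psmb6 and 172 for Psmb7. The merged exons of these 3 genes span 899, 1872 and 3421 bases, and with them the order of Psmb5 and Psmb7 turns. Psmd4 had 180.2 and Psmd2 149, an order that also turns with merged exons, of 2808 and 4038 bases. The core chaperones had 21.2 to 36.2 and the activator Psme4 25.8 per kilobase of transcript.

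Genes that work with the proteasome moved in both directions. Of 13 associated genes tested, siFEM1B gave 4 higher and 4 lower in sgBACH1 cells and 6 higher and 3 lower in sgCTRL cells, and knockout gave 2 higher and 5 lower under each siRNA. Over all tested genes siFEM1B gave 21.9% higher and 19.8% lower in sgBACH1 cells and 22.1% higher and 22.9% lower in sgCTRL cells, and knockout gave 28.2% higher and 26.4% lower under siFEM1B and 24.2% higher and 26.3% lower under siCTRL, and nothing particular to these genes is read from their counts. Pomp, the maturation factor of the core, rose with siFEM1B by 0.22 ± 0.08 in sgBACH1 cells (adjusted p = 0.028) and 0.37 ± 0.08 in sgCTRL cells (adjusted p = 0.00058). Ube3c, a ubiquitin ligase bound to the proteasome, fell with siFEM1B, its log2 fold change being -0.73 ± 0.09 and -0.65 ± 0.09 (adjusted p = 2.0e-06 and 5.0e-06), and Uchl5, a deubiquitinase of the base, by -0.63 ± 0.09 and -0.55 ± 0.09 (adjusted p = 8.4e-06 and 3.8e-05).

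With knockout the zinc finger gene Zfand5, an activator of the proteasome in mouse cells, rose and Zfand2a, its arsenite-inducible relative, fell. Zfand5 had 191, 192 and 192 CPM in sgBACH1 cells against 107, 113 and 106 CPM in sgCTRL cells under siCTRL and rose by 0.82 ± 0.06 on the log2 scale (adjusted p = 2.0e-10). Zfand2a had 30.5, 33.2 and 34.7 CPM against 68.0, 61.0 and 63.5 CPM, its log2 fold change being -0.97 ± 0.07 (adjusted p = 4.0e-10). Under siFEM1B Zfand5 had 243, 261 and 234 CPM in sgBACH1 cells against 133, 143 and 148 CPM in sgCTRL cells, and Zfand2a 36.6, 35.8 and 36.0 CPM against 72.7, 76.1 and 68.3 CPM. No value with chromosome medians removed was taken for these 2 genes. The part of chromosome-wide differences between the lines, as large as a median of 0.44 on chromosome 19, was not tested.

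Of 12 genes of the NRF1 pathway tested, knockout gave 4 higher and 3 lower under siCTRL and 3 higher and 5 lower under siFEM1B, and siFEM1B gave 3 higher and 4 lower in sgBACH1 cells and 5 higher and 3 lower in sgCTRL cells. The shares over all tested genes were 24.2% and 26.3% with knockout under siCTRL, 28.2% and 26.4% under siFEM1B, 21.9% and 19.8% with siFEM1B in sgBACH1 cells, and 22.1% and 22.9% in sgCTRL cells, and nothing particular to the pathway is read from its counts. Nfe2l1 itself had 316, 288 and 320.2 CPM in sgBACH1 cells with siFEM1B, 299, 318 and 295 CPM in sgBACH1 cells with siCTRL, 433, 378 and 365 CPM in sgCTRL cells with siFEM1B and 333, 355 and 358 CPM in sgCTRL cells with siCTRL. Both sgBACH1 groups lay below their sgCTRL groups. It fell with knockout, its log2 fold change being -0.20 ± 0.06 under siCTRL (adjusted p = 0.013) and -0.35 ± 0.06 under siFEM1B (adjusted p = 9.9e-05), and rose with siFEM1B by 0.17 ± 0.06 in sgCTRL cells (adjusted p = 0.032). Syvn1, the ligase of NRF1 turnover at the endoplasmic reticulum, rose with knockout by 0.67 ± 0.06 (adjusted p = 9.2e-09) under siCTRL and 0.52 ± 0.06 (adjusted p = 2.9e-07) under siFEM1B. No value with chromosome medians removed was taken for Nfe2l1 or Syvn1. Whole chromosomes differed between the lines, by as much as a median of 0.44 on chromosome 19. The part of this in the knockout differences of Nfe2l1 and Syvn1 was not tested.

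Other multi-subunit complexes were counted in the same way, where in either direction 41.7% of all tested genes were called with siFEM1B in sgBACH1 cells, 45.0% in sgCTRL cells, 54.6% with knockout under siFEM1B and 50.5% under siCTRL. Of 8 genes of the CCT chaperonin, which folds actin and tubulin, siFEM1B gave 5 lower in sgBACH1 cells and 6 lower in sgCTRL cells, with none higher in either, and knockout gave 3 lower under siFEM1B and 1 higher and 4 lower under siCTRL. Of 9 genes of the COP9 signalosome, which resembles the lid in its subunits, siFEM1B gave 1 higher and 2 lower in sgBACH1 cells and 1 higher and 3 lower in sgCTRL cells, and knockout gave 3 higher and 2 lower under siFEM1B and 2 higher and 2 lower under siCTRL. Of 13 genes of the initiation factor eIF3, siFEM1B gave 2 higher and 5 lower in sgBACH1 cells and 1 higher and 6 lower in sgCTRL cells, and knockout gave 5 higher and 4 lower under siFEM1B and 3 higher and 5 lower under siCTRL. Of 13 genes of ubiquitin supply and shuttling, siFEM1B gave 3 higher and 6 lower in sgBACH1 cells and 2 higher and 4 lower in sgCTRL cells, and knockout gave 2 higher and 6 lower under siFEM1B and 2 higher and 4 lower under siCTRL.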

How the data were processed

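Counts per gene symbol were deposited by the authors as whole numbers, not normalized. Libraries came from a stranded mRNA kit, per the labels' protocols. Subread, featureCounts 1.6.4, SAMtools 1.9, DESeq2 1.26.0 and mm10 are listed in the submitters' processing notes with no role. Which annotation and strand setting featureCounts used is not given in the sources used here. Overlapping and copied genes are therefore uncertain. Of the 45 genes, 37 shared under 20% of their 50-base stretches with transcripts of other genes (GENCODE vM21), and Psma4, Psma5, Psmb5, Psmb7, Psmc3, Psmc3ip, Psmd1, Psmd3, Psmd9, Psmd13, Psme1, Psme2b and Psmg3 overlap exons of another gene.

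Genes passing filterByExpr at a minimum count of 10 were scaled with TMM (0.989 to 1.01) and fitted with edgeR 4.0.16 in R 4.3.3, with 1 mean per group over 12 libraries and 8 residual degrees of freedom. Calls are two-sided quasi-likelihood tests at a Benjamini-Hochberg adjusted p under 0.05 over all 13281 genes. SE is the log2 fold change over the square root of F; n is 3 per group throughout. CPM uses TMM-scaled totals. The design text calls replicates biological; where cultures were not separate, p-values measure only the spread between these libraries. Replicate pairs differed beyond sampling noise (chi-square per degree of freedom 2.50 to 13.5), so each library counts once. The interaction is the siFEM1B effect in sgBACH1 minus that in sgCTRL cells.

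Gene lists and members were chosen with earlier results of these data known. Genes named were the 3 largest called rises and falls per comparison, the smallest p per subcomplex, and a fixed set of catalytic, receptor, activator and inhibitor genes; others were named after their values were seen. The removal of length and GC trends was added after seeing the data, and lengths (1 transcript per symbol, GENCODE vM21) were known for 12769 genes, 96.1% of those tested. The fit was tested on simulated data.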

Additional observations from a re-analysis of the deposited data

How the results depend on the processing

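Of the 86 called values of the 45 genes in the 4 comparisons, 47 kept their call under all 22 alternatives. Other scaling, filters and tools, the replicate block and fits of only the compared libraries lost 12 of 602 such values and turned none; leaving out 1 library lost 70 of 1032 and turned none. With chromosome medians removed, 17 calls were lost and 5 turned (Psma3 under siCTRL 0.038; under siFEM1B Psma4 -0.070, Psma6 0.020, Psmc6 -0.062 and Psme1 -0.041), Psmd6 turned to a called -0.23 under siCTRL and became called at -0.27 under siFEM1B, and knockout risers numbered 1 under siCTRL and 2 under siFEM1B. The length and GC alternatives were chosen after seeing the data. With the length trend removed, 15 calls were lost, Psma7 with siFEM1B in sgBACH1 cells turned to a called -0.14 (adjusted p = 0.0492), knockout risers under siFEM1B numbered 2, siFEM1B risers in sgBACH1 cells 5, and the interaction called 1 lower (Psmd7, -0.28). With the GC trend removed 8 calls were lost. With only the compared libraries fitted, knockout risers under siCTRL numbered 5; the interaction and the test of any difference were not run this way. DESeq2 called 2 lower in the interaction. The causes were not tested.

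Leaving out 1 library gave knockout risers of 2 to 3 under siCTRL and 2 to 7 under siFEM1B, knockout fallers of 12 to 18 and 18 to 21, siFEM1B risers of 10 to 13 in sgBACH1 cells and 11 to 14 in sgCTRL cells, siFEM1B fallers of 6 to 9 and 6 to 7, 36 to 38 genes differing among the groups, and 0 to 1 higher and 0 to 2 lower in the interaction. The 2 knockout risers under siFEM1B were left without replicate 1 of sgCTRL with siFEM1B, and 7 without its replicate 3; the 12 fallers under siCTRL without replicate 3 of sgBACH1 with siCTRL.

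Same-numbered libraries did not deviate together (r -0.115 to 0.0788). With the replicate block the counts higher and lower were 2 and 17 for knockout under siCTRL, 5 and 20 under siFEM1B, 12 and 8 for siFEM1B in sgBACH1 cells, 13 and 7 in sgCTRL cells, and 0 and 0 for the interaction, and 37 of 45 genes differed among the groups.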
